A study of Mus musculus with 12 samples.

Results

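This account covers 34 mouse genes of mitochondrial fatty acid oxidation in liver, chosen by symbol from a fixed list of enzymes for fatty acid activation, the carnitine shuttle, beta-oxidation, electron transfer and mitochondrial thioester hydrolysis. The table writes symbols in capitals, and mouse style is used here. All 34 were among the 56441 genes of the deposited count table and all 34 were among the 15228 genes that passed a filter on low counts. RNA was sequenced from 12 liver libraries, 3 in each of 4 groups, for a study of fumarate hydratase (FH) and the fatty liver. The ob/ob FH group held ob/ob mice, which lack functional leptin and become obese, that received an AAV8 virus carrying FH by tail vein at 6 to 8 weeks of age and were kept on a high-fat diet for 1 month. The ob/ob vector group had the same genotype, age and diet with the AAV8 vector alone. The fasted FH group held C57BL/6 mice given the FH virus at the same age and fasted for 24 h 1 month later, and the fasted vector group had the vector alone and the same fast. The virus is described as specific to liver. The sources used here give neither its promoter nor the species of the FH sequence. Between the ob/ob and the fasted groups leptin genotype, diet and feeding state all differ, so none of them can be told apart from the others.

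Fatty acids are burned in the mitochondrial matrix. They are first joined to coenzyme A, carried across the inner membrane as carnitine esters, and shortened in repeated rounds of dehydrogenation, hydration, dehydrogenation and thiolysis, with electrons passed to the respiratory chain by the electron transfer flavoprotein. In liver the pathway is known to be raised by fasting through the nuclear receptor PPARα, and to be held back by malonyl-CoA, which blocks carnitine palmitoyltransferase 1.

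Some features of the whole series touch every value below. Total counts per library lay between 21632289 and 23506015 for ob/ob FH, 12573267 and 14496559 for ob/ob vector, 19107050 and 25873379 for fasted FH, and 12231828 and 14884323 for fasted vector livers. Fh1, the mouse gene of FH, stood at 620.2, 616 and 802 CPM in ob/ob FH livers, against 142, 106 and 118 CPM in ob/ob vector livers. It stood at 926, 721 and 792 CPM in fasted FH livers, against 311, 408 and 238 CPM in fasted vector livers, so the labelled gene was higher in both. CPM, counts relative to library size, are scaled by the trimmed mean of M-values (TMM), which sets the typical gene near no change. The TMM factors ran from 0.721 to 0.907 in the FH libraries and from 1.12 to 1.37 in the vector libraries. The sum of 8 hepatocyte markers ran from 137183 to 168538 CPM in ob/ob FH livers, against 47409 to 59047 CPM in ob/ob vector livers. In fasted FH livers it ran from 175406 to 185398 CPM, against 53513 to 76587 CPM in fasted vector livers. Most of each sum was Alb, at 109591 to 134555 CPM in ob/ob FH and 32651 to 42247 CPM in ob/ob vector livers. In fasted livers Alb stood at 109494 to 122644 CPM with FH and 30113 to 45144 CPM with the vector. Markers of sinusoidal endothelium and Kupffer cells were detected in every library, although the labels name the hepatocyte as the cell type. For 6 endothelial markers the sum was 227 to 262 CPM in ob/ob FH against 169 to 224 CPM in ob/ob vector livers, and 108 to 127 CPM in fasted FH against 249 to 287 CPM in fasted vector livers. For 6 Kupffer cell and macrophage markers it was 456 to 657 CPM in ob/ob FH against 179.8 to 310.3 CPM in ob/ob vector livers, and 156 to 179 CPM in fasted FH against 244 to 444 CPM in fasted vector livers. In bulk tissue, fewer cells of a type and less RNA per cell cannot be told apart. The part of these shifts in the results was not tested. The ob/ob FH libraries carried 2242 to 4992 counts of the female-specific Xist and 0 counts of 4 Y-linked genes. The other 9 libraries carried 1 to 24 counts of Xist and 2304 to 5181 Y-linked counts. In the ob/ob livers the FH effect and a difference of sex therefore cannot be told apart, and the same holds for the difference between the models and for the ob/ob against fasted FH livers. Dbp, an output gene of the circadian clock, stood at 12.1, 16.3 and 37 CPM in ob/ob FH livers, against 35.7, 0.42 and 36.7 CPM in ob/ob vector livers (log2 -0.15, edgeR adjusted p = 0.885). It stood at 63.2, 45.8 and 48 CPM in fasted FH livers, against 5.82, 2.39 and 4.39 CPM in fasted vector livers, 12.55-fold higher with no overlap (adjusted p = 0.00358). Its part in the results, those of the fasted livers above all, was not tested. No label ties a library to its own mouse. A p-value here therefore reflects how far libraries of 1 group scatter, and that scatter may be technical.

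Genes of mitochondrial fatty acid oxidation were mostly higher with FH in the fasted livers and less uniformly so in the ob/ob livers. With edgeR's quasi-likelihood test and Benjamini-Hochberg adjustment over all 15228 genes, 15 of the 34 members rose with FH in ob/ob livers and 2 fell, where 25.8% of all genes rose and 27.9% fell. In the fasted livers 25 members rose and 0 fell, where 27.4% of all genes rose and 27.6% fell. The median log2 fold change of the members was 0.48 in ob/ob livers, beside -0.011 for all genes tested. In fasted livers it was 0.92, beside -0.044 for all genes tested. Of the 8 hepatocyte markers 7 rose and 0 fell in each model, with a median of 1.19 in ob/ob and 1.25 in fasted livers. The part of this shift in the rise of the members was not tested. At an unadjusted p under 0.05, 0 members fell in the fasted livers, and by DESeq2 0 fell as well. The shares of all genes at that threshold and by DESeq2 were not taken. Groups of libraries did not overlap for 19 members higher and 2 lower with FH in ob/ob livers, where 30.6% and 31.2% of all genes did so. In fasted livers 25 members were higher without overlap and 0 lower, where 30.4% and 30.6% of all genes did so.

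These counts depend on the scaling. Divided by library totals alone, the median of all genes lay at -0.63 in the ob/ob and at -0.71 in the fasted comparison. On that scale 5 members rose and 8 fell with FH in ob/ob livers, and 8 rose and 5 fell in fasted livers, where 6.82% and 7.14% of all genes rose and 53.3% and 55.8% fell. The members that rose on both scales were Acsl5, Cpt2, Hadha, Acaa2 and Etfb in ob/ob livers, and Acsl1, Acsl5, Cpt1a, Cpt2, Acadvl, Acad11, Hadha and Acaa2 in fasted livers. Together the members took 0.834% to 0.850% of all counts in ob/ob FH libraries, against 0.664% to 0.993% in ob/ob vector libraries. They took 1.01% to 1.13% in fasted FH libraries, against 0.732% to 0.929% in fasted vector libraries. The shares overlap in the ob/ob livers and do not overlap in the fasted livers.

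**Figure D1:**
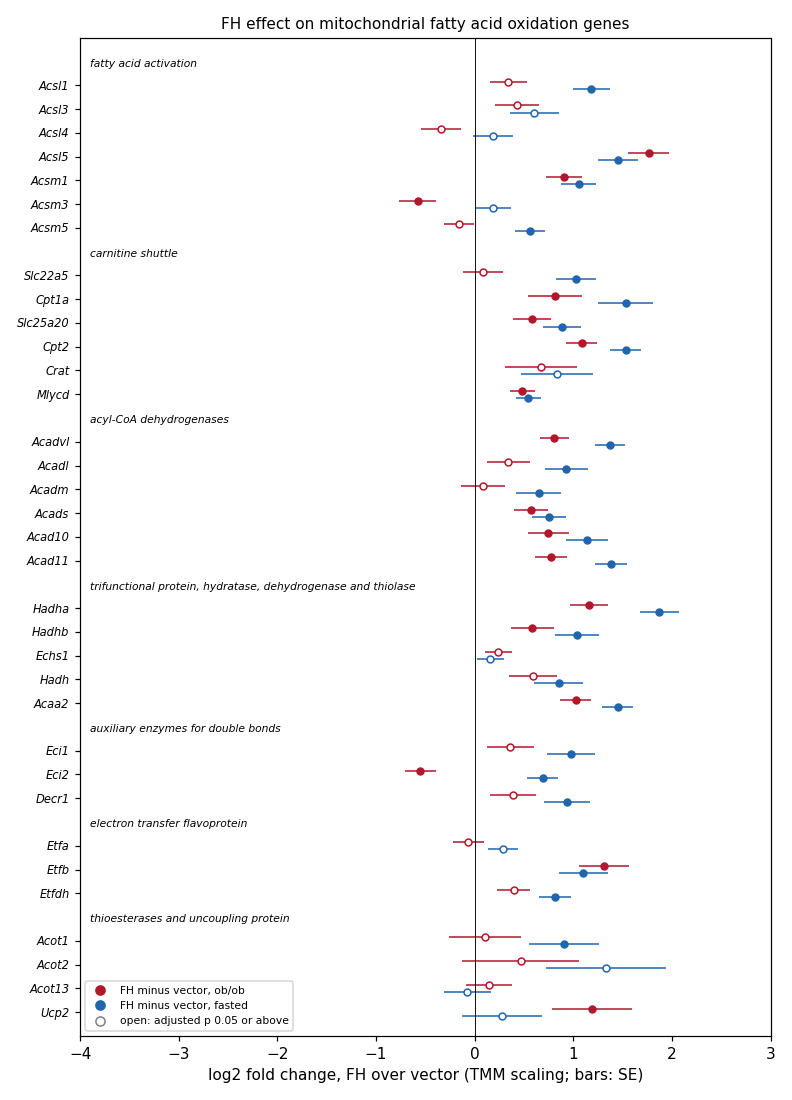
Log2 fold change of each of the 34 genes, FH over vector, with its SE, for ob/ob livers (red) and fasted livers (blue), grouped by role, with filled points for an adjusted p under 0.05. Most points lie right of 0, Hadha is highest in fasted livers at 1.87, and Eci2 lies at -0.55 in ob/ob and at 0.69 in fasted livers.

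**Figure D2:**
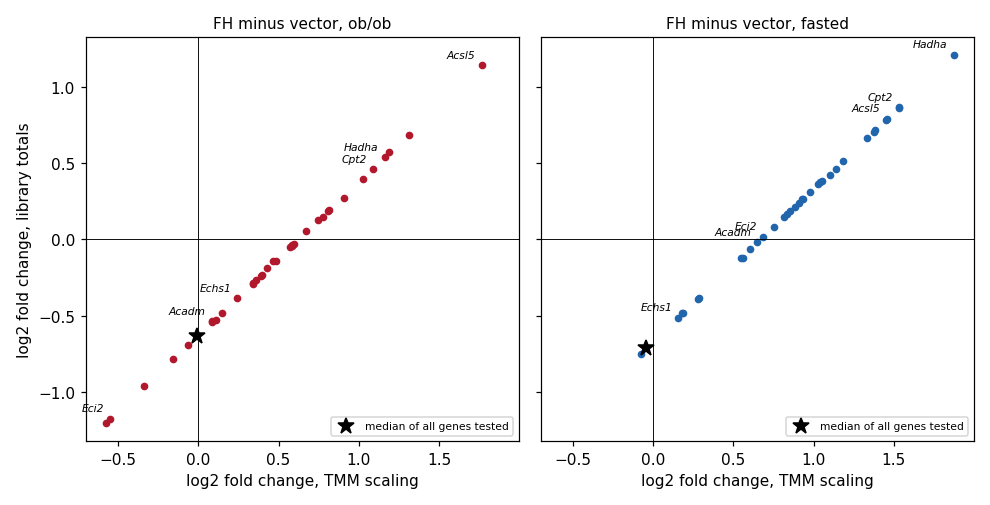
Log2 fold change, FH over vector, on TMM scaling (x axis) and on library totals (y axis) for the 34 genes, in ob/ob livers (left) and fasted livers (right), with a star for the median of all genes tested. Points right of 0 on the x axis and below 0 on the y axis change sign between the scales, such as Acadm in ob/ob livers at 0.085 and -0.54.

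The carnitine shuttle, which brings long-chain acyl groups into the matrix, was higher with FH for most of its genes on TMM scaling. Of its 6 members 4 rose and 0 fell in ob/ob livers, where 25.8% of all genes rose and 27.9% fell, and 5 rose and 0 fell in fasted livers, where 27.4% rose and 27.6% fell. These shares stand behind the counts of the other roles too. On library totals 1 rose and 1 fell in ob/ob livers, where 6.82% of all genes rose and 53.3% fell. In fasted livers 2 rose and 0 fell on that scale, where 7.14% of all genes rose and 55.8% fell. The counts of the other roles on library totals have these same shares behind them. Cpt1a encodes CPT1A, the outer membrane transferase that malonyl-CoA inhibits, the step that sets the pace of the pathway. It stood at 551, 646 and 647 CPM in ob/ob FH livers, against 428, 179.6 and 441 CPM in ob/ob vector livers. It stood at 1656, 1377 and 1604 CPM in fasted FH livers, against 482, 677 and 447 CPM in fasted vector livers. The groups do not overlap in either model, and ob/ob vector replicate 2 is the lowest of the 12 libraries. The rise was 1.76-fold in ob/ob livers (log2 0.81, SE 0.27, edgeR adjusted p = 0.0226) and 2.89-fold in fasted livers (log2 1.53, SE 0.28, adjusted p = 4.50e-04). The ob/ob call needed all of the FH libraries but replicate 1. It ended when ob/ob FH replicate 2 was left out (log2 0.79, adjusted p = 0.0582) or when replicate 3 was (0.75, adjusted p = 0.0679), and the log2 fold change was 0.52 without ob/ob vector replicate 2. In a fit of the 6 ob/ob libraries alone it missed the threshold too (0.75, adjusted p = 0.0754).

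Cpt2, the gene of CPT2, the inner membrane transferase that turns acylcarnitine back into acyl-CoA, rose in both models and on both scales. It stood at 185, 172 and 173 CPM in ob/ob FH livers, against 89.8, 66.9 and 93 CPM in ob/ob vector livers. It stood at 306, 285 and 318 CPM in fasted FH livers, against 107, 122 and 85.2 CPM in fasted vector livers. Every FH library lies above every vector library of either model. The rise was 2.12-fold in ob/ob livers (adjusted p = 7.48e-05) and 2.89-fold in fasted livers (adjusted p = 6.39e-06). On library totals the log2 fold changes were 0.46 and 0.87 (adjusted p = 0.012 and 1.66e-04). Slc25a20, the carnitine-acylcarnitine exchanger of the inner membrane, rose 1.5-fold in ob/ob livers (adjusted p = 0.0217) and 1.84-fold in fasted livers (adjusted p = 0.00182), but on library totals stood at -0.045 and 0.21. Its ob/ob call was lost without ob/ob FH replicate 1 (log2 0.49, adjusted p = 0.0874) or ob/ob vector replicate 2 (0.38, adjusted p = 0.0512). Mlycd, malonyl-CoA decarboxylase, which removes the inhibitor of Cpt1a, rose by a log2 of 0.48 in ob/ob livers (adjusted p = 0.00665) and 0.55 in fasted livers (adjusted p = 0.00306), and stood at -0.14 and -0.12 on library totals.

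Slc22a5, the plasma membrane carnitine importer OCTN2, rose in the fasted livers, with no call in the ob/ob livers. It stood at 29.2, 29.1 and 31.2 CPM in ob/ob FH livers, against 30.1, 20.4 and 33.9 CPM in ob/ob vector livers, and these groups overlap (log2 0.085, adjusted p = 0.746). It stood at 122, 86 and 125 CPM in fasted FH livers, against 64.5, 57.2 and 41.8 CPM in fasted vector livers, a 2.04-fold rise (adjusted p = 7.90e-04). The difference between these effects was -0.94 in log2 units (adjusted p = 0.0576). Crat, carnitine acetyltransferase, did not pass in either model, with log2 fold changes of 0.67 (adjusted p = 0.131) and 0.84 (adjusted p = 0.0651). Its level in ob/ob vector livers was 74.3, 21.1 and 96.3 CPM, lowest in replicate 2. Without ob/ob vector replicate 3 the log2 fold change in ob/ob livers was 1.11 (adjusted p = 0.0198).

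The promoters of Cpt1a, Acadvl and Acadm are shown as those of 3 genes given in full here that hold the core sequence AGGTCA, to which nuclear receptors such as PPARα and HNF4α are known to bind as part of longer sites. The sequences are RefSeq's 250 bases before the annotated start, in the sense of the gene, on build GRCm38.p6, with the motif in capitals on either strand (AGGTCA or its complement TGACCT). They lie at chr19:3323051-3323300 on the plus strand for Cpt1a, chr11:70015429-70015678 on the minus strand for Acadvl and chr3:153944644-153944893 on the minus strand for Acadm.
Cpt1a: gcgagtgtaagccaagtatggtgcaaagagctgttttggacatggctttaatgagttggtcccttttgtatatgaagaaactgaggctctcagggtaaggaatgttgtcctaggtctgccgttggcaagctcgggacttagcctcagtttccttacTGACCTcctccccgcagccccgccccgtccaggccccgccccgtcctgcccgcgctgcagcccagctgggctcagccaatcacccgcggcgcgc
Acadvl: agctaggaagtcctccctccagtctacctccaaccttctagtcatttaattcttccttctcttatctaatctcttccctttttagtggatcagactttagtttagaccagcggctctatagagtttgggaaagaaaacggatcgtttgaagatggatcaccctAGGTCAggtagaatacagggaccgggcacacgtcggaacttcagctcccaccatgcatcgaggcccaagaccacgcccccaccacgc
Acadm: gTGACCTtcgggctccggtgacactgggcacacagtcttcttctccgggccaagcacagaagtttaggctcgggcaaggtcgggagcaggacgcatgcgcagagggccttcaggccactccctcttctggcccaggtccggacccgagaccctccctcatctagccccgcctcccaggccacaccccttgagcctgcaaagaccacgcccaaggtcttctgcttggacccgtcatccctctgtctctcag
The match begins 94 bases before the start in Cpt1a, 87 before it in Acadvl and 249 before it in Acadm. Such windows were given for 30 of the 34 members (31 windows, since Acsl1 has 2 starts), and Acot13, Acaa2, Crat and Decr1 had none. AGGTCA was found in 5 of the 31 member windows (16.1%), those of Cpt1a, Acadvl, Acadm, Acsm1, which rose in both models, and Echs1, which passed in neither, and in 14% of all 32851 windows of the same length, and the direct repeat of it with 1 base between the copies in 0 member windows and in 0.0335% of all. The repeat contains AGGTCA, and a window without a match says only that these letters are not in it.

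**Figure D3:**
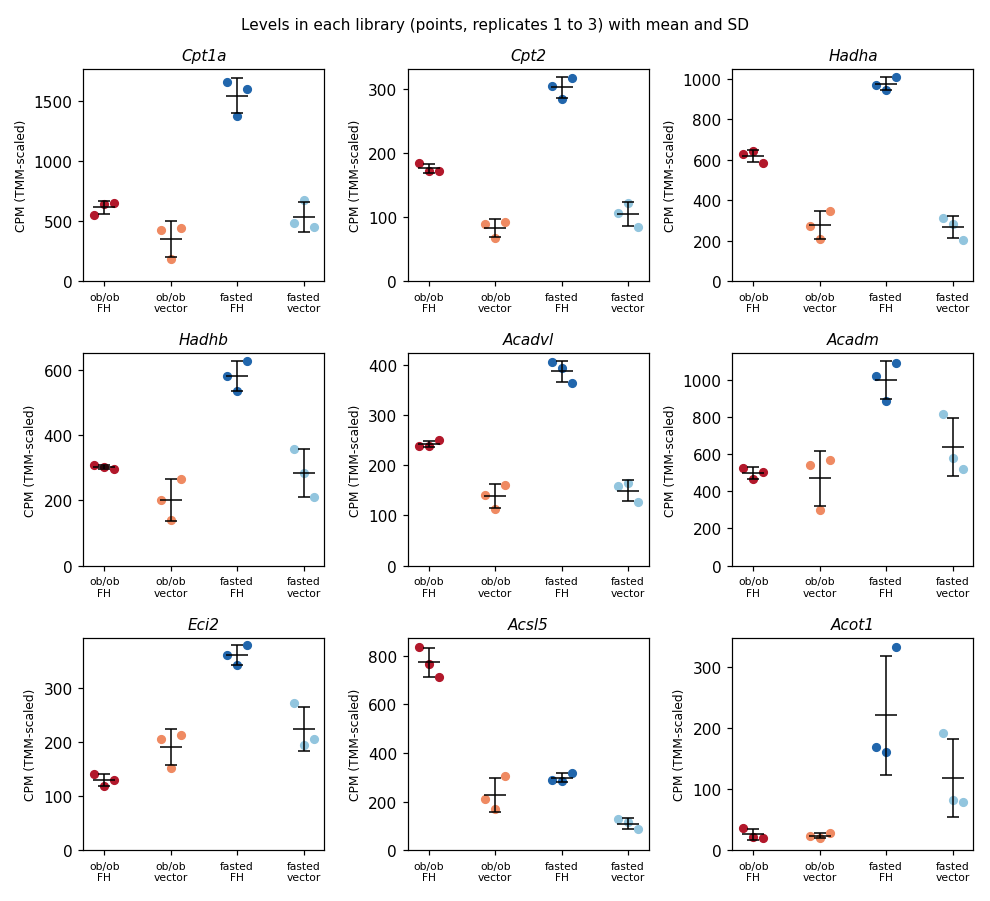
TMM-scaled CPM of 9 genes in each library (points), with the mean and SD of the 3 libraries of a group, in ob/ob FH, ob/ob vector, fasted FH and fasted vector livers. In the panel of Cpt2 every FH point lies above every vector point, and in the panel of Eci2 the ob/ob FH points lie below the ob/ob vector points.

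The acyl-CoA dehydrogenases, which take the first pair of electrons from chains of different length, rose in the fasted livers in 6 of 6 cases, against 27.4% of all genes. In ob/ob livers 4 of 6 rose and 0 fell, against 25.8% and 27.9% of all genes. On library totals 0 of 6 rose and 1 fell in ob/ob livers, and 2 rose and 0 fell in fasted livers. Acadvl, the dehydrogenase for very long chains on the inner membrane, stood at 239.8, 239 and 250.1 CPM in ob/ob FH livers, against 142, 114 and 161 CPM in ob/ob vector livers. It stood at 406, 395 and 365 CPM in fasted FH livers, against 158, 165 and 126 CPM in fasted vector livers. The rise was 1.75-fold in ob/ob livers (log2 0.81, SE 0.15, adjusted p = 4.88e-04) and 2.59-fold in fasted livers (log2 1.37, SE 0.15, adjusted p = 9.37e-06). All groups are separated within each model.

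Acadm, the medium-chain dehydrogenase, moved less. It stood at 526, 466 and 504 CPM in ob/ob FH livers, against 542, 300.3 and 569 CPM in ob/ob vector livers, where the ob/ob FH values lie inside the vector range (log2 0.085, adjusted p = 0.773). It stood at 1022, 888 and 1093 CPM in fasted FH livers, against 816, 578 and 522 CPM in fasted vector livers, a 1.57-fold rise (adjusted p = 0.0269). That call was lost without any of 4 libraries: fasted FH replicate 1 (log2 0.64, adjusted p = 0.0608), fasted FH replicate 3 (0.59, adjusted p = 0.08), fasted vector replicate 2 (0.60, adjusted p = 0.075) and fasted vector replicate 3 (0.54, adjusted p = 0.103). On library totals Acadm stood at -0.54 in ob/ob and at -0.019 in fasted livers.

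The long-chain dehydrogenase Acadl rose by a log2 of 0.93 in fasted livers (adjusted p = 0.0027) and stood at 0.34 in ob/ob livers (adjusted p = 0.201). Acads, for short chains, rose by 0.57 in ob/ob livers (adjusted p = 0.0122) and by 0.75 in fasted livers (adjusted p = 0.00225). Acad10 and Acad11, members of the family with less settled substrates, rose by 0.75 and 0.77 in ob/ob livers (adjusted p = 0.00788 and 0.00112) and by 1.14 and 1.38 in fasted livers (adjusted p = 4.99e-04 and 1.54e-05). On library totals Acad11 still rose in fasted livers (0.72, adjusted p = 8.46e-04), whereas Acadl, Acads and Acad10 passed in neither model, and Acads stood at -0.052 in ob/ob livers.

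Hadha and Hadhb encode HADHA and HADHB, the α and β subunits of the mitochondrial trifunctional protein, which carries out the last 3 steps of a round on long chains. Hadha stood at 628, 644 and 585 CPM in ob/ob FH livers, against 274, 209 and 348 CPM in ob/ob vector livers. It stood at 970.3, 948 and 1011 CPM in fasted FH livers, against 313, 282 and 205 CPM in fasted vector livers. With 3.66-fold (log2 1.87, SE 0.20, adjusted p = 7.08e-06) this was the largest rise of the 34 members in fasted livers, and in ob/ob livers it was 2.24-fold (log2 1.16, SE 0.19, adjusted p = 2.23e-04). Hadhb stood at 308, 303 and 296 CPM in ob/ob FH livers, against 200.2, 138 and 266 CPM in ob/ob vector livers, and at 582, 536 and 626 CPM in fasted FH livers, against 357, 283 and 209 CPM in fasted vector livers. Its rise was 1.5-fold in ob/ob livers (adjusted p = 0.0376) and 2.05-fold in fasted livers (adjusted p = 0.00144), smaller than that of Hadha in both, and on library totals Hadhb stood at -0.036 in ob/ob and 0.37 in fasted livers. The ob/ob call of Hadhb was lost without any of 5 of the 6 libraries, with log2 0.39 to 0.60 and adjusted p from 0.0766 to 0.107, and was kept only without ob/ob vector replicate 3.

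The ratio of Hadha to Hadhb counts within a library is free of any scaling between libraries. It was 2.04, 2.13 and 1.98 in ob/ob FH livers, against 1.37, 1.51 and 1.31 in ob/ob vector livers. It was 1.67, 1.77 and 1.62 in fasted FH livers, against 0.877, 0.996 and 0.978 in fasted vector livers. The 4 groups do not overlap at all and run, low to high, from fasted vector through ob/ob vector and fasted FH to ob/ob FH. The log2 ratio was higher with FH by 0.55 in ob/ob and by 0.83 in fasted livers (exact permutation test, two-sided p = 0.1 in each, the smallest that 3 against 3 libraries allow). Hadha shares exon sequence on the opposite strand with Garem2 in GENCODE M21, and the sources used here do not say whether the counting used strand. This ratio and the other ratios were chosen after the values were seen. Acadvl to Acadm was also higher with FH, by 0.68 in ob/ob and 0.71 in fasted livers. Etfdh to Etfa was higher by 0.48 and 0.53 (exact permutation test, two-sided p = 0.1 in each of these). An uneven move was therefore not particular to Hadha and Hadhb. Cpt1a to Cpt2 stood at -0.18 in ob/ob (exact p = 0.6) and 0.0027 in fasted livers.

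Hadha and Hadhb stand head to head on chromosome 5, with starts 273 bases apart and on opposite strands. The 250 bases before the Hadhb start (RefSeq, GRCm38.p6, chr5:30155003-30155252, plus strand) lie wholly between the starts, and are shown because the subunit genes beside them moved unequally.
Hadha-Hadhb: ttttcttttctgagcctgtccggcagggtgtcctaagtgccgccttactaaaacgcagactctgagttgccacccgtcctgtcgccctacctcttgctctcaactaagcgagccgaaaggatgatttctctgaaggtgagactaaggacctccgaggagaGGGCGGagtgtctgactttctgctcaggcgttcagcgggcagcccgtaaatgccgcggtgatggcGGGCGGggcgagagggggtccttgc
The capitals mark GGGCGG (or its complement CCGCCC), the GC box bound by Sp1 and related factors, which begins 90 and 25 bases before the Hadhb start. GGGCGG was found in 18 of 31 member windows (58.1%) and in 32.7% of all windows. The windows of Hadha and Hadhb are both among the 18 and share most of their bases, so 1 box can count for both.

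**Figure D4:**
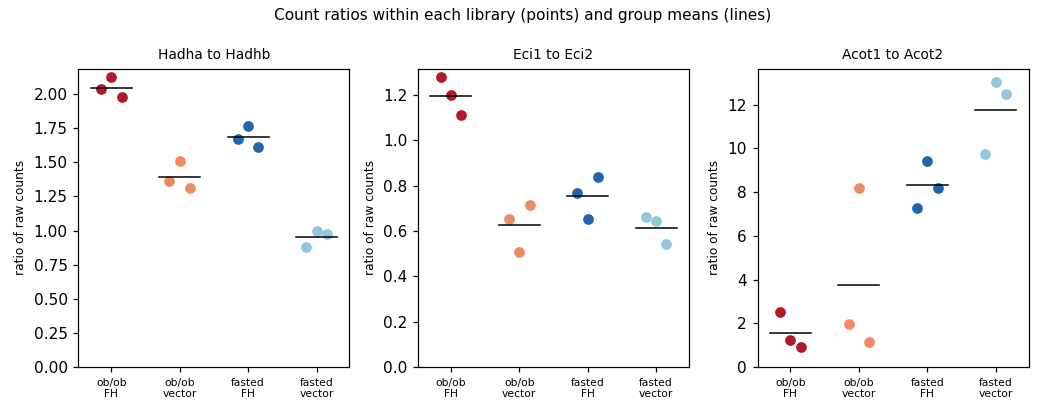
Ratio of raw counts of 2 related genes within each library (points), with group means (lines), for Hadha to Hadhb, Eci1 to Eci2 and Acot1 to Acot2, in ob/ob FH, ob/ob vector, fasted FH and fasted vector livers. The Hadha to Hadhb ratios of the 4 groups do not overlap, and Acot1 to Acot2 in ob/ob vector replicate 2 lies far above the other ob/ob libraries.

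Acaa2, the thiolase that closes a round on medium chains, rose 2.03-fold in ob/ob livers (adjusted p = 1.22e-04) and 2.73-fold in fasted livers (adjusted p = 9.80e-06). It averaged 1183 ± 91.3 CPM in ob/ob FH and 582 ± 50.7 CPM in ob/ob vector livers, and 1394 ± 58.3 CPM in fasted FH and 511 ± 95.6 CPM in fasted vector livers (SD, n = 3 each). Per kb of exon it was the most abundant member in all 4 groups, at 780.4 CPM per kb in ob/ob FH, 384 in ob/ob vector, 919.6 in fasted FH and 337 in fasted vector livers. Hadh, the short-chain hydroxyacyl-CoA dehydrogenase, rose by a log2 of 0.85 in fasted livers (adjusted p = 0.00976) and stood at 0.59 in ob/ob livers (adjusted p = 0.0547). In ob/ob livers DESeq2 called Hadh (log2 0.58, adjusted p = 0.0335), as did edgeR without ob/ob vector replicate 3 (0.85, adjusted p = 0.0123). The short-chain enoyl-CoA hydratase Echs1 passed in neither, with 0.24 (adjusted p = 0.159) and 0.16 (adjusted p = 0.352), and on library totals it was lower with FH in both, at -0.39 and -0.52 (adjusted p = 0.02 and 0.0039).

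Among the auxiliary enzymes, which prepare unsaturated fatty acids for the main cycle, Eci2 went in opposite directions. Eci2 encodes an enoyl-CoA isomerase found in mitochondria and peroxisomes. It stood at 141, 119 and 129.7 CPM in ob/ob FH livers, against 205, 152 and 214 CPM in ob/ob vector livers, a log2 change of -0.55 (SE 0.16, edgeR adjusted p = 0.0107). It stood at 361, 342 and 379.7 CPM in fasted FH livers, against 271, 195 and 206 CPM in fasted vector livers, and rose by 0.69 (SE 0.16, adjusted p = 0.00266). The groups do not overlap in either model. The fall in ob/ob livers missed the threshold without ob/ob FH replicate 2 (log2 -0.48, adjusted p = 0.0536) or ob/ob vector replicate 3 (-0.44, adjusted p = 0.0507). On library totals Eci2 stood at 0.016 in fasted livers (adjusted p = 0.935) and fell by 1.18 in ob/ob livers (adjusted p = 2.82e-05). Part of its exon sequence overlaps the opposite-strand gene Gm16984.

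Eci1, the other mitochondrial enoyl-CoA isomerase, stood at 0.36 in ob/ob livers (adjusted p = 0.218) and rose by 0.98 in fasted livers (adjusted p = 0.00376). The ratio of Eci1 to Eci2 counts was 1.28, 1.2 and 1.11 in ob/ob FH livers, against 0.652, 0.509 and 0.712 in ob/ob vector livers (exact permutation test, two-sided p = 0.1, the smallest possible). It was 0.768, 0.653 and 0.838 in fasted FH livers, against 0.661, 0.642 and 0.541 in fasted vector livers (exact p = 0.2). The ob/ob FH libraries therefore stood above the other 9 in this ratio. Decr1, the dienoyl-CoA reductase, stood at 0.39 in ob/ob livers (adjusted p = 0.173) and rose by 0.93 in fasted livers (adjusted p = 0.00403).

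The electron transfer flavoprotein, made of the products of Etfa and Etfb, hands electrons to ubiquinone through the Etfdh protein. Etfdh rose by 0.81 in fasted livers (adjusted p = 0.001) and stood at 0.39 in ob/ob livers (adjusted p = 0.0566), where DESeq2 called it (log2 0.38, adjusted p = 0.0412). Etfdh also passed without ob/ob vector replicate 3 (0.52, adjusted p = 0.0298). Etfa passed in neither model, at -0.063 (adjusted p = 0.75) and 0.28 (adjusted p = 0.13), though it rose in fasted livers without fasted vector replicate 1 (0.39, adjusted p = 0.0407). Etfb rose in both, but at a low level. It stood at 7.77, 6.14 and 7.0 CPM in ob/ob FH livers, against 3.02, 3.42 and 1.99 CPM in ob/ob vector livers, a 2.48-fold rise (adjusted p = 7.82e-04). It stood at 8.63, 8.76 and 12.4 CPM in fasted FH livers, against 5.46, 3.23 and 5.25 CPM in fasted vector livers, a 2.15-fold rise (adjusted p = 0.0021). Per kb of exon Etfb had 7.80 CPM in ob/ob FH, 3.14 in ob/ob vector, 11.1 in fasted FH and 5.21 in fasted vector livers, whereas Etfa had 264, 276, 339 and 278 CPM per kb in the same order of groups. The Etfb exons overlap the same-strand gene Gm45233 in GENCODE M21, and the sources used here do not say how reads shared by 2 genes were counted. Acsl3 and Acad11 also share exon sequence with a same-strand gene. On the opposite strand 8 members do: Acsl5, Acsm3, Crat, Acadvl, Acad11, Hadha, Eci2 and Ucp2. The part of these overlaps in the values was not tested.

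The ligases that activate fatty acids differed among themselves. Of 7 members, 2 rose and 1 fell in ob/ob livers, where 25.8% and 27.9% of all genes did, and 4 rose and 0 fell in fasted livers, where 27.4% and 27.6% did. On library totals 1 rose and 3 fell in ob/ob livers, and 2 rose and 2 fell in fasted livers. Acsl5, a long-chain acyl-CoA synthetase of mitochondria and endoplasmic reticulum, had the largest rise of the 34 members in ob/ob livers. It stood at 837, 767 and 714 CPM in ob/ob FH livers, against 210.2, 168 and 304 CPM in ob/ob vector livers, a 3.4-fold rise (log2 1.76, SE 0.21, adjusted p = 1.62e-05). It stood at 289, 286 and 318 CPM in fasted FH livers, against 127, 114 and 84.8 CPM in fasted vector livers, a 2.74-fold rise (adjusted p = 6.62e-05). The groups are separated in both models.

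Acsl1, the main long-chain synthetase of liver, rose 2.27-fold in fasted livers (adjusted p = 1.60e-04) and stood at a log2 of 0.34 in ob/ob livers (adjusted p = 0.135). The difference between the effects was -0.84 (adjusted p = 0.064, and 0.0449 on library totals). Acsl3, linked to lipid droplets, and Acsl4, which prefers arachidonate, passed in neither model, at 0.43 and -0.34 in ob/ob and 0.60 and 0.18 in fasted livers. Without fasted vector replicate 1, Acsl3 rose by 0.98 in fasted livers (adjusted p = 0.00119), and without fasted vector replicate 2, Acsl4 rose by 0.50 (adjusted p = 0.0283).

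The medium-chain ligases of the Acsm family also differed. Acsm1 rose 1.87-fold in ob/ob livers (adjusted p = 9.03e-04) and 2.08-fold in fasted livers (adjusted p = 2.84e-04). Acsm5 rose by a log2 of 0.56 in fasted livers (adjusted p = 0.0062, against -0.12 on library totals) and stood at -0.16 in ob/ob livers (adjusted p = 0.388). Acsm3 stood at 60.3, 57 and 57.7 CPM in ob/ob FH livers, against 88.1, 59.1 and 114 CPM in ob/ob vector livers, a log2 change of -0.58 (SE 0.18, edgeR adjusted p = 0.0169). Its groups overlap, and the call was lost without ob/ob FH replicate 2 (log2 -0.55, adjusted p = 0.0552) or ob/ob vector replicate 3 (-0.32, adjusted p = 0.118). In fasted livers Acsm3 stood at 101, 97.1 and 79.6 CPM with FH, against 80.3, 83.2 and 80.2 CPM with the vector (log2 0.19, adjusted p = 0.402).

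Ucp2, an inner membrane carrier counted with the pathway, rose in the ob/ob livers, and no call was made in the fasted livers. It stood at 86.2, 111 and 88 CPM in ob/ob FH livers, against 41.7, 15.6 and 68.2 CPM in ob/ob vector livers, a 2.28-fold rise (adjusted p = 0.0237) that was lost without ob/ob FH replicate 2 (log2 1.07, adjusted p = 0.0715) or ob/ob vector replicate 1 (1.20, adjusted p = 0.0542). It stood at 28.6, 28.6 and 41.8 CPM in fasted FH livers, against 17.2, 40.6 and 23.7 CPM in fasted vector livers (log2 0.28, adjusted p = 0.583). The difference between the effects was 0.91 (adjusted p = 0.36).

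The thioesterases split acyl-CoA back into free fatty acid and coenzyme A. Acot1, which is cytosolic in mouse and is counted here with its mitochondrial neighbour Acot2, stood at 36, 21 and 20.0 CPM in ob/ob FH livers, against 23.3, 20.2 and 27.9 CPM in ob/ob vector livers (log2 0.11, adjusted p = 0.823). It stood at 169, 160.4 and 332 CPM in fasted FH livers, against 192, 82.7 and 78.9 CPM in fasted vector livers. These groups overlap, and the rise in fasted livers (log2 0.91, adjusted p = 0.0448) was lost without fasted FH replicate 3 (0.49, adjusted p = 0.261), fasted vector replicate 2 (0.72, adjusted p = 0.146) or fasted vector replicate 3 (0.70, adjusted p = 0.164). With RLE size factors Acot1 also missed the threshold (0.87, adjusted p = 0.0512). Acot2 and Acot13 passed in neither model, at 0.47 and 0.15 in ob/ob and 1.33 and -0.076 in fasted livers. Without fasted vector replicate 1, Acot2 rose by 2.04 in fasted livers (adjusted p = 0.0218).

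Acot1 and Acot2 lie on the same strand of chromosome 12, and their reading frames of 1260 and 1362 bases are identical at 95.6% of 1239 aligned bases, so the split of reads between them is uncertain. Their promoters are shown because they lie outside the near-identical reading frames. The 250 bases before each start are RefSeq's, on GRCm38.p6 and the plus strand, at chr12:84009252-84009501 for Acot1 and chr12:83987611-83987860 for Acot2, with CCAAT or its complement ATTGG in capitals, the box bound by NF-Y.
Acot1: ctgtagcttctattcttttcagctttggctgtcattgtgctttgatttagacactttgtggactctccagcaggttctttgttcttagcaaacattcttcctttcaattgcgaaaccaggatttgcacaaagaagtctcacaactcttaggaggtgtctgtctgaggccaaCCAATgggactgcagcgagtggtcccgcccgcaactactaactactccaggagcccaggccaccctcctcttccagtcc
Acot2: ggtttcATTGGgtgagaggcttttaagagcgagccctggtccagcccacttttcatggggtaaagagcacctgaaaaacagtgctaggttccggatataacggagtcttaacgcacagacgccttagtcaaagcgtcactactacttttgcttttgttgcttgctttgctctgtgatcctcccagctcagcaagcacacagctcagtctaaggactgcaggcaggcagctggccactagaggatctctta
The box begins 79 bases before the start in Acot1 and 244 before it in Acot2. CCAAT was found in 16 of 31 member windows (51.6%) and in 33.8% of all windows.

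Whether the FH effect differed between the models was tested directly, as the ob/ob effect minus the fasted effect. Eci2 was the one member whose effects differed, by -1.24 in log2 units (SE 0.23, edgeR adjusted p = 0.00683), and 0 members differed upward. Among all genes 3.66% differed downward and 4.77% upward. On library totals 2 members, Acsl1 and Eci2, differed downward and 0 upward, where 2.37% and 4.74% of all genes did so. The call of Eci2 kept its side of the threshold when any single library was left out. Of the 34 members 29 had a difference below 0, with a median of -0.45, beside -0.11 for all genes. For Cpt1a it was -0.72 (95% interval -1.61 to 0.17), for Cpt2 -0.45 (-0.95 to 0.056), for Hadha -0.71 (-1.33 to -0.095), for Acadvl -0.57 (-1.04 to -0.089) and for Acadm -0.56 (-1.30 to 0.18). Their adjusted p ran from 0.107 to 0.303, so these effects were not shown to differ or to be alike.

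The markers of other cells moved with this comparison, since 6 of 6 endothelial and 6 of 6 Kupffer cell and macrophage markers differed upward, and their part in the result was not tested.

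The count of members called in this difference depended on 1 library above all, and also on the method. Ob/ob vector replicate 2 was the lowest of its group for 30 of the 34 members (88.2%), where 40.2% of all genes had their lowest value there. It also stood apart in the Dbp values given above, where it was the lowest of the 12 libraries, and in adipocyte markers. Adipoq had 46 counts there and Plin1 had 18, against 0 counts of each in ob/ob vector replicates 1 and 3. Lep had 2 counts there, against 0 and 1. Cfd had 101 counts there, against 43 and 70. The sum of these 4 markers ran from 0.781 to 3.21 CPM in ob/ob FH livers, against 2.5 to 8.78 CPM in ob/ob vector livers, and the part of these shifts was not tested. Without ob/ob vector replicate 2, 11 members differed downward, among them Cpt1a (-1.03, adjusted p = 0.0148), Hadha (-0.88, adjusted p = 0.027), Acadvl (-0.69, adjusted p = 0.0298) and Acadm (-0.80, adjusted p = 0.0471). Without fasted FH replicate 2 or fasted vector replicate 2 the count was 2. DESeq2 on all libraries called 4 members downward. The shares of all genes called in these alternative fits were not taken, so these counts cannot be set against them. In the fasted vector group replicate 3 was the lowest for 25 members, where 28.8% of all genes had their lowest value there. In the fasted FH group replicate 2 was the lowest for 25, where 34.2% of all genes had theirs.

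Between the obese and the fasted livers with the vector alone, the counts of members called lay near the shares of all genes. Of the 34, 3 were higher in ob/ob vector livers and 4 lower, where 9.36% of all genes were higher and 8.18% lower. On library totals 4 were higher and 2 lower, where 18% and 4.21% of all genes were. Without overlap 3 were higher and 5 lower, where 14.8% of all genes were in each direction. Of 8 hepatocyte markers 1 was higher and 5 were lower in ob/ob vector livers, and their part in the result was not tested. These comparisons share their vector libraries with the FH comparisons above. Acsl3 stood at 29.7, 28.6 and 39.5 CPM in ob/ob vector livers, against 10.8, 4.79 and 5.72 CPM in fasted vector livers, 4.62-fold higher (log2 2.21, SE 0.25, adjusted p = 9.22e-05). Its exons overlap the same-strand gene Utp14b, and how shared reads were counted is not known. Acsl5, whose values are given above, was 2.09-fold higher (adjusted p = 0.00325). Acsm5 stood at 140.4, 141 and 137 CPM, against 99.3, 77.2 and 106 CPM in fasted vector livers (log2 0.57, adjusted p = 0.0198), which did not pass without ob/ob vector replicate 1 (0.56, adjusted p = 0.0549) or fasted vector replicate 2 (0.44, adjusted p = 0.077).

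Acot1 was the lowest against the fasted livers, 4.95-fold lower in ob/ob vector livers (log2 -2.31, SE 0.38, adjusted p = 0.00123), with no overlap. Acot2, its near copy, stood at 12, 2.47 and 24.2 CPM, against 19.7, 6.34 and 6.31 CPM in fasted vector livers (log2 0.27, adjusted p = 0.819). The ratio of Acot1 to Acot2 counts was 1.95, 8.19 and 1.15 in ob/ob vector livers, against 9.76, 13 and 12.5 in fasted vector livers (exact permutation test, two-sided p = 0.1, the smallest possible). It was 2.54, 1.25 and 0.895 in ob/ob FH livers, against 7.29, 9.44 and 8.19 in fasted FH livers (exact p = 0.1). Slc22a5 was lower by a log2 of 0.95 in ob/ob vector livers (adjusted p = 0.0062), Mlycd stood at -0.43 (adjusted p = 0.0357) and Acsl1 at -0.62 (adjusted p = 0.0356). Acsl1 stood at 580, 546 and 670 CPM in ob/ob vector livers, against 902, 1099 and 754 CPM in fasted vector livers. The call of Acsl1 was lost without ob/ob vector replicate 1 or 2 or fasted vector replicate 1 or 2, with adjusted p from 0.062 to 0.132. The 5 core genes did not pass, with Cpt1a at -0.61 (adjusted p = 0.143), Cpt2 at -0.33 (adjusted p = 0.16), Hadha at 0.056 (adjusted p = 0.885), Acadvl at -0.11 (adjusted p = 0.666) and Acadm at -0.44 (adjusted p = 0.207). Without ob/ob vector replicate 2, 8 members were higher, and without ob/ob vector replicate 1 or fasted vector replicate 1, 2 were lower. The shares of all genes in these fits were not taken.

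**Figure D5:**
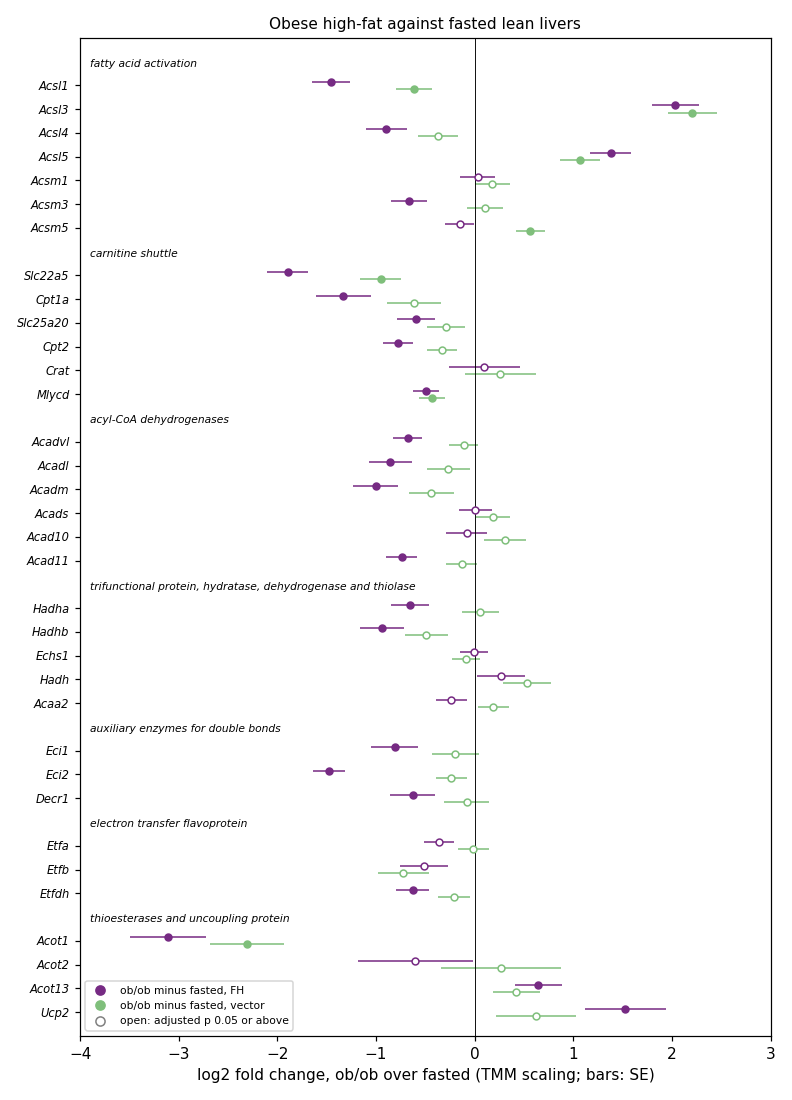
Log2 fold change of each of the 34 genes, ob/ob over fasted, with its SE, in FH livers (purple) and vector livers (green), grouped by role, with filled points for an adjusted p under 0.05. Acot1 lies far left and Acsl3 far right in both, and more of the purple points are filled left of 0.

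With FH in both, ob/ob livers were lower than fasted livers in more members. Of the 34, 4 were higher and 19 lower in ob/ob FH livers, where 18.6% of all genes were higher and 21.6% lower, and on library totals 4 were higher and 12 lower, where 26.5% and 9.69% of all genes were. Without overlap 5 were higher and 22 lower, where 25.4% and 31.3% of all genes were. The groups of this comparison also differ in the sex markers given above. Of the cell type markers, 6 of 6 Kupffer cell and macrophage, 6 of 6 endothelial and 4 of 6 stellate cell markers were higher in ob/ob FH livers. Of 8 hepatocyte markers 1 was higher and 6 lower, with a median log2 change of -1.21, beside -0.62 for the members. The part of these shifts in the result was not tested. Acot1 was 8.6-fold lower in ob/ob FH livers (log2 -3.10, adjusted p = 6.82e-05), Slc22a5 3.72-fold lower (adjusted p = 2.87e-05) and Eci2 2.78-fold lower (adjusted p = 3.23e-05). Acsl3 was 4.09-fold higher (adjusted p = 4.76e-05), Ucp2 2.88-fold higher (adjusted p = 0.00952) and Acsl5 2.6-fold higher (adjusted p = 2.24e-04). Acsl3 stood at 41.9, 51.2 and 38.8 CPM in ob/ob FH livers, against 9.9, 11.5 and 10.8 CPM in fasted FH livers. Cpt1a was lower by 1.33 on the log2 scale (adjusted p = 0.00214), Acadm by 1.0 (adjusted p = 0.00374), Cpt2 by 0.78 (adjusted p = 0.00157), Acadvl by 0.68 (adjusted p = 0.00283) and Hadha by 0.66 (adjusted p = 0.0142). Hadha did not pass when ob/ob FH replicate 1 was left out (-0.62, adjusted p = 0.0536) or when replicate 3 was (-0.58, adjusted p = 0.0767), nor on library totals (-0.40, adjusted p = 0.086).

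A fixed list of 31 other genes of mitochondrial fatty acid handling and its control was read beside the members, and 27 were tested. Hnf4a is in this list and also among the hepatocyte markers. With FH 9 rose and 5 fell in ob/ob livers, with a median of -0.038, and 9 rose and 6 fell in fasted livers, with a median of 0.25. These counts lie near the shares of all genes, 25.8% and 27.9% in ob/ob and 27.4% and 27.6% in fasted livers. On library totals 5 rose and 12 fell in ob/ob livers, where 6.82% of all genes rose and 53.3% fell. In fasted livers 3 rose and 11 fell on that scale, where 7.14% of all genes rose and 55.8% fell. Against fasted livers, 2 of the 27 were higher and 8 lower in ob/ob vector livers, where 9.36% and 8.18% of all genes were. In ob/ob FH livers 4 were higher and 14 lower, where 18.6% and 21.6% of all genes were. Lower calls above the share of all genes were therefore not particular to the members there. On library totals 4 were higher and 7 lower in vector livers (18% and 4.21% of all genes), and 5 and 8 in FH livers (26.5% and 9.69%). Acsf2, an acyl-CoA synthetase, rose by a log2 of 1.09 in ob/ob and 1.66 in fasted livers (adjusted p = 2.91e-05 and 2.31e-06). Rxra, the partner receptor of PPARα, rose by 1.04 and 1.64 (adjusted p = 1.12e-04 and 4.51e-06). Acsf3, malonyl-CoA synthetase of mitochondria, rose by 1.45 in fasted livers (adjusted p = 9.67e-05), while Them4, a thioesterase, fell by 0.87 in ob/ob livers (adjusted p = 1.27e-04).

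Of the regulators, Ppara stood at 107, 156 and 106 CPM in ob/ob FH livers, against 130.2, 70.6 and 149 CPM in ob/ob vector livers (log2 0.079, adjusted p = 0.821). It stood at 266, 233 and 143 CPM in fasted FH livers, against 129.6, 127 and 124 CPM in fasted vector livers (log2 0.75, adjusted p = 0.0281), and this call was lost without any of 5 of the 6 libraries, with adjusted p from 0.0594 to 0.118. The coactivator Ppargc1a passed in neither model, at -0.67 (adjusted p = 0.0568) and 0.32 (adjusted p = 0.326). Without ob/ob vector replicate 2 it fell in ob/ob livers (log2 -0.87, adjusted p = 0.0115), and without fasted vector replicate 2 it rose in fasted livers (0.71, adjusted p = 0.0277). The acetyl-CoA carboxylases make malonyl-CoA, and Acaca rose by 1.67 in ob/ob and 1.25 in fasted livers (adjusted p = 1.35e-04 and 0.00128). Acacb, whose enzyme sits at the mitochondrial surface beside Cpt1a, rose by 1.31 in ob/ob livers (adjusted p = 5.65e-04) and stood at 0.57 in fasted livers (adjusted p = 0.0632), where it rose without fasted vector replicate 2 (0.88, adjusted p = 0.00938).

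Pdk4, a kinase that spares pyruvate when fat is burned, was the gene of this list whose FH effects differed. It stood at 33, 38 and 23 CPM in ob/ob FH livers, against 20.3, 18.7 and 39.7 CPM in ob/ob vector livers (log2 0.25, adjusted p = 0.61). It stood at 6.37, 4.68 and 10.2 CPM in fasted FH livers, against 43.2, 14.1 and 18.3 CPM in fasted vector livers, and fell by 1.81 on the log2 scale (adjusted p = 0.0028). The difference was 2.07 (adjusted p = 0.0439), a call lost without any of 8 libraries, with values from 1.47 to 2.29 and adjusted p from 0.0533 to 0.11. Between the vector groups, Acaca and Acacb were higher in ob/ob livers by 2.22 and 1.46 (adjusted p = 1.58e-04 and 0.00161), and Hsd17b10 and Hnf4a were lower by 1.75 and 0.92 (adjusted p = 1.03e-04 and 0.00132). Ppargc1a was lower in ob/ob livers, at -1.04 (adjusted p = 0.0185), which did not pass without ob/ob vector replicate 3 (-1.0, adjusted p = 0.0567) or fasted vector replicate 2 (-0.66, adjusted p = 0.0954), and Ppara and Pdk4 stood at -0.12 and 0.063 (adjusted p = 0.803 and 0.939).

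Across the 34 members exon length and the FH effect were weakly related, with Spearman's rho of 0.12 in ob/ob and 0.19 in fasted livers, as a description of genes that share their libraries. Across all genes with a length it was -0.0057 and 0.015.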

How the data were processed

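Liver RNA of 12 libraries was analysed from the authors' deposited table of raw counts per gene. Per the labels' protocols, RNA was extracted with TRIzol and libraries were made from 1 μg of total RNA with a stranded Illumina mRNA kit. STAR 2.7.11a and the GRCm39 build are named per the submitters' processing notes. The sources used here do not say how reads were assigned to genes, or with which annotation and strand. Columns were matched to samples by name. The fasted and ob/ob columns without FH in their name were taken as the vector groups.

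The fit used edgeR 4.0.16 (glmQLFTest after TMM and filterByExpr with a minimum count of 10 and 15 in total) in R 4.3.3, with all 12 libraries in 1 model of 4 groups (8 residual degrees of freedom, also used for the 95% intervals). Adjusted p is Benjamini-Hochberg over all genes tested, called under 0.05, and a verb of change is used only for such calls. SE refers to log2 fold changes. DESeq2 1.42.0, RLE size factors, library totals, no filter, fits of 6 libraries, the replicate number as a block and each library left out were run as alternatives. The test was also run on counts simulated with TMM scaling and with changes balanced up and down. That run cannot speak to the choice of scaling. Exon lengths (union of exons) and overlaps came from GENCODE M21 basic (GRCm38) by symbol, and promoters from RefSeq. GENCODE and RefSeq were on an older build than the alignment.

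The members and lists were chosen with earlier results of these data known. Values in every library were given for Cpt1a, Cpt2, Hadha, Acadvl and Acadm, for the 3 largest called rises and falls per comparison and for members called in opposite directions. Hadhb, Acot2, Crat, Dbp, library values of the regulators and the ratios were added after values were seen. Of the list of 31 other genes, 5 fixed regulators and up to 4 genes with the smallest adjusted p per comparison were named.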

Additional observations from a re-analysis of the deposited data

Results flagged for a closer look

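The FH effect on Eci2 differed between the models by -1.24 in log2 units (ob/ob minus fasted, edgeR adjusted p = 0.00683), with a fall in ob/ob and a rise in fasted livers. The sex markers of the ob/ob FH libraries moved with it, and their part was not tested.

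The FH effect on Pdk4 differed by 2.07 in log2 units (edgeR adjusted p = 0.0439), with 3 of 3 fasted FH libraries below the 3 fasted vector libraries and overlapping groups in ob/ob livers. The call was lost without any of 8 of the 12 libraries and with the replicate block (2.11, adjusted p = 0.0528). The sex markers of the ob/ob FH libraries differ here too, and their part was not tested.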

How the results depend on the processing

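Of 131 results, the direction depended most on the scaling. On library totals in place of TMM, members called with FH were 5 higher and 8 lower in ob/ob livers and 8 higher and 5 lower in fasted livers, 2 differed downward between the models, and 2 were lower in ob/ob than in fasted vector livers and 12 in FH livers. On that scale the sign turned in ob/ob livers for Acsl1 (-0.29), Acsl3 (-0.19), Slc22a5 (-0.54), Slc25a20 (-0.045), Mlycd (-0.14), Acadl (-0.28), Acadm (-0.54), Acads (-0.052), Hadhb (-0.036), Echs1 (-0.39), Hadh (-0.030), Eci1 (-0.27), Decr1 (-0.24), Etfdh (-0.23), Acot1 (-0.53), Acot2 (-0.14), Acot13 (-0.48), Ppara (-0.54) and Pdk4 (-0.37). In fasted livers it turned for Acsl3 (-0.065), Acsl4 (-0.48), Acsm3 (-0.48), Acsm5 (-0.12), Mlycd (-0.12), Acadm (-0.019), Echs1 (-0.52), Etfa (-0.39), Ucp2 (-0.39), Ppargc1a (-0.35) and Acacb (-0.095), and between the vector groups, among the genes named there, for Acadvl (0.10) and Ppara (0.082). Of all 34 members, those above 0 numbered 14 with TMM and 21 on library totals between vector groups, and 8 and 12 between FH groups. Between these fits only the scale factors were set differently, and the spread was estimated anew. DESeq2 called 4 members downward in the difference between the models. Without the filter 5 were called downward and 1 upward there, and 5 were higher in ob/ob vector livers. With only the 6 libraries compared, 2 were lower in ob/ob vector livers, and over all results 7 calls were lost and 4 gained. The shares of all genes were not taken for the DESeq2, unfiltered and 6-library fits, and the cause of these shifts was not tested.

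With a library left out, counts with FH ran from 12 to 18 higher and 0 to 2 lower in ob/ob livers and 23 to 28 higher and 0 lower in fasted livers. They ran from 1 to 11 lower and 0 higher in the difference, 2 to 8 higher and 2 to 4 lower between vector groups, and 3 higher and 13 to 19 lower between FH groups. The shares of all genes were not taken for these fits. Signs turned in such fits in ob/ob livers for Acot1 (-0.23 to 0.26), Slc22a5 (-0.086 to 0.26), Acadm (-0.14 to 0.26), Acot2 (-0.0099 to 1.33), Acot13 (-0.047 to 0.31) and Ppara (-0.17 to 0.31), in fasted livers for Acot13 (-0.26 to 0.20) and Ucp2 (-0.020 to 0.71), and between vector groups for Acadvl (-0.23 to 0.018), Ppara (-0.34 to 0.14), Hadha (-0.14 to 0.22) and Pdk4 (-0.36 to 0.70).

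Same-numbered libraries deviated with correlations of -0.15 to 0.11. Libraries of different number were not compared, so these values cannot show whether an equal number stands for anything shared. With the replicate block 16 members rose with FH in ob/ob and 25 in fasted livers, and the difference in Pdk4 was 2.11 (edgeR adjusted p = 0.0528), 1 of 2 calls the block ended, beside 1 it added. The shares of all genes were not taken for the fit with the block.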
